A study of Mus musculus with 32 samples.

Results

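The features described here are those most enriched in ribosome-associated RNA of the PV population of the mouse cortex, relative to 7 other neuron populations of the forebrain. They were chosen by measured values: a feature had to reach 1 CPM (its count scaled to 1000000 counts in its library) in each of the 4 PV libraries, and its PV mean had to be at least 3 times the mean of every other group. Of the 56459 features in the table, 13220 reached 1 CPM in all PV libraries, and 133 of those (1.01%) met the whole rule. Since the PV values chose them, every statement below that sets PV against other groups is a description with no test, and tests were run only between groups other than PV.

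RNA bound to ribosomes was sequenced from populations that the sample titles call PV, SST, VIP, Scnn and CamK in cortex and SST, Grik and CamK in hippocampus, with 4 libraries in each of the 8 groups. All libraries carry the label of a wild-type genotype. The labels give no age, treatment, Cre line or promoter, and no statement on whether animals were pooled or whether the 4 libraries of a group came from separate animals, so that p-values measure only the spread between these libraries, which may be technical. The VIP cortex titles and all hippocampal titles carry a W before the number and the other cortical titles do not.

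From knowledge of the field, PV neurons are GABAergic (inhibitory) interneurons marked by the calcium-buffering protein parvalbumin. Most are fast-spiking basket or chandelier cells, which contact the soma or the axon initial segment of pyramidal cells and rely on rapid potassium channels and a high energy supply. SST cells, marked by somatostatin, mostly target dendrites and share a developmental origin with PV cells in the medial ganglionic eminence, whereas VIP cells, marked by vasoactive intestinal peptide, come from the caudal ganglionic eminence and often inhibit other interneurons. The other populations, CamK, Scnn and Grik, are read here as excitatory, glutamatergic ones, with Scnn standing mainly for cortical layer 4 and Grik for hippocampal CA3. Features are named by GSMG identifiers, which the files do not pair with gene names, and 0 of them occur in the reference tables used here. Neither the PV label nor any other could therefore be checked on marker genes, no role can be given to a feature, no sequence is shown, and a few identifiers per comparison stand for the rest.

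Libraries held between 100158438 and 114153919 counts, except SST hippocampus replicate 1 with 186505391. At these totals 1 CPM stands for at least 100.2 counts, and a count of 0 in the smallest library allows a level of up to 0.03 CPM (3 counts, counting error only).

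The 133 members together took 1.77% ± 0.0686 of all counts in PV libraries (SD, n = 4; range 1.68% to 1.83%). Their share was 0.364% ± 0.03 in SST cortex, 0.334% ± 0.0295 in SST hippocampus, 0.269% ± 0.006 in VIP cortex, 0.195% ± 0.0163 in Scnn cortex, 0.159% ± 0.00629 in CamK cortex, 0.121% ± 0.00651 in Grik hippocampus and 0.120% ± 0.00747 in CamK hippocampus (n = 4 each). The share rests on few features, since 3 members gave 55.5% of the PV sum and 10 members gave 74.8%. Without those 3 members the share was 0.788% ± 0.0192 in PV and 0.150% ± 0.0118 in SST cortex (n = 4 each). The median member stood at 15.3 CPM in PV, 2.16 CPM in SST cortex, 2.09 CPM in SST hippocampus, 1.37 CPM in VIP cortex, 0.773 CPM in Scnn cortex, 0.501 CPM in CamK cortex, 0.478 CPM in CamK hippocampus and 0.456 CPM in Grik hippocampus. In bulk libraries such as these, fewer cells of a type and less RNA per cell cannot be told apart.

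The members spanned more than 3 orders of magnitude in level, with PV means of 1.39 to 4657 CPM. Of the 133 members, 25 had a PV mean of at least 100 CPM, 72 lay from 5 to under 100 CPM and 36 lay under 5 CPM. The enrichment over the highest other group was mostly moderate, with a median of 4.35 times and quartiles of 3.46 and 6.87 times. It reached 5 times in 53 members, 10 times in 16 and 20 times in 4. The median enrichment was much the same at every level, 4.37 times among members of at least 100 CPM, 4.28 times in the middle range and 4.55 times under 5 CPM. In every one of the 133 members the lowest PV library stood above the highest of the 28 other libraries. In 69 members it stood at least 3 times above it. The rule used these same values, so that this separation is largely fixed by it. The share over other features was not counted.

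**Figure D1:**
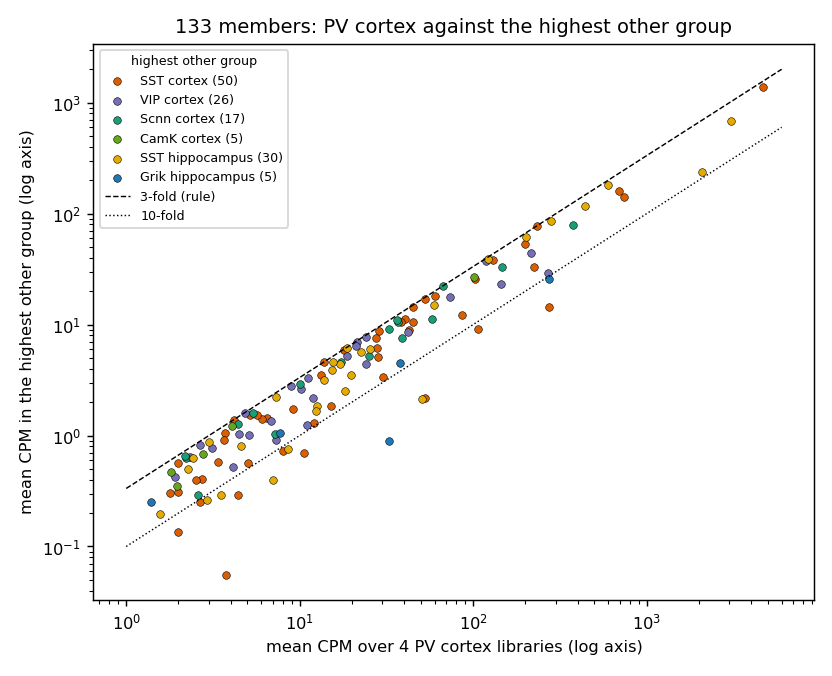
Mean CPM of each member over the 4 PV cortex libraries (horizontal, log axis) against its mean in the highest other group (vertical, log axis), with colours for the group that came next. The dashed line is the 3-fold limit of the rule and the dotted line is 10-fold. Most of the 133 points lie between both lines, and 16 lie on or below the 10-fold line.

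GSMG0030830, the most abundant member, had 4494, 5278, 4452 and 4405 CPM in the PV libraries. It had 1332, 1664, 1023 and 1519 CPM in SST cortex, 924, 1300, 1082 and 964 CPM in SST hippocampus, and 1220, 1262, 1307 and 1233 CPM in VIP cortex. The lowest levels were the 289 to 340 CPM of Grik hippocampus and the 397 to 502 CPM of CamK hippocampus, with 646 to 913 CPM in Scnn cortex and 710 to 870 CPM in CamK cortex between. GSMG0030830 was thus measured at a high level in every group, with a PV mean 3.36 times the SST cortex mean. The SST cortex, VIP cortex and SST hippocampus libraries overlapped in level. GSMG0032485, the next in level, averaged 3080 ± 210 CPM in PV against 683 ± 38.8 CPM in SST hippocampus and 573 ± 37.6 CPM in SST cortex (SD, n = 4 each), and its other group means lay between 199 and 393 CPM.

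GSMG0014211 showed another pattern, abundant in PV, lower in SST, lower again in VIP and Scnn cortex and lowest in CamK and Grik cells. Its PV libraries held 1535, 2262, 2378 and 2150 CPM. The SST libraries held 134, 124, 231 and 239 CPM in cortex and 193, 290, 224 and 249 CPM in hippocampus, which overlap. VIP cortex had 16.2 to 34.4 CPM, Scnn cortex 21.9 to 28 CPM, CamK cortex 2.38 to 5.88 CPM, CamK hippocampus 1.16 to 2.13 CPM and Grik hippocampus 1.05 to 2.22 CPM. Per kilobase of its deposited length of 936 bases, the level in PV was 2224 CPM, the highest of all members on that scale, ahead of GSMG0030830 with 1947 CPM per kilobase over 2392 bases.

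The member with the largest enrichment, GSMG0040681, was nearly limited to PV. Its PV libraries held 3.13, 3.27, 5.13 and 3.59 CPM, and none of the other 28 libraries passed 0.128 CPM. It had no count in the 4 VIP cortex and the 4 Grik hippocampus libraries, which allows a level of up to 0.00722 CPM over VIP cortex and 0.00687 CPM over Grik hippocampus (3 counts over the group). Its highest other group mean was 0.0555 CPM in SST cortex, 68.1 times below PV. GSMG0005550 followed at 36.7 times, with 33, 25.3, 35.1 and 38 CPM in PV libraries and at most 1.08 CPM in any other. Its next group was not an interneuron but Grik hippocampus, at 0.895 ± 0.147 CPM, although SST cortex at 0.578 ± 0.361 CPM overlapped it in single libraries (n = 4 each).

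**Figure D2:**
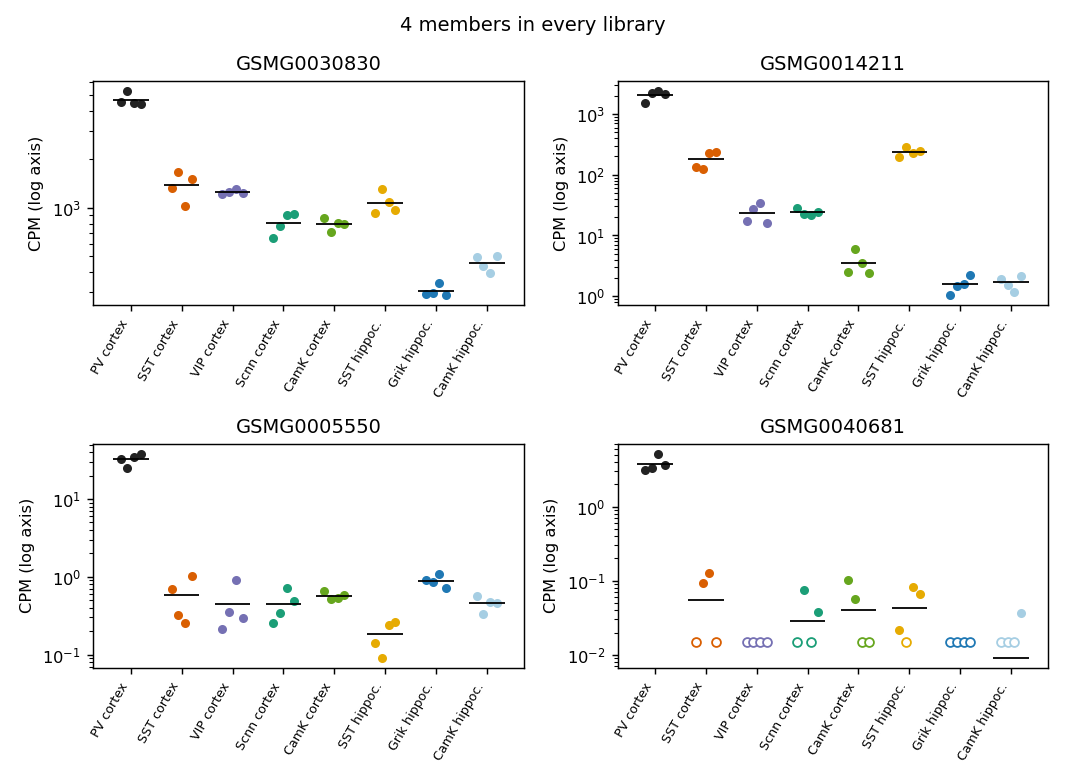
CPM (log axes, different ranges) of the member with the highest PV mean, the member with the highest PV mean per kilobase and the 2 members with the largest enrichment, in each of the 32 libraries by group. Points are libraries, black lines are group means, and open points are libraries with a count of 0, drawn at an arbitrary low position. The PV points stand above all others in each panel.

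Members at the limit of the rule were also measured at several CPM in the libraries of other interneuron groups. GSMG0027404, at 3.01 times, averaged 13.7 ± 1.71 CPM in PV against 4.56 ± 0.419 CPM in SST cortex and 4.3 ± 1.06 CPM in VIP cortex. GSMG0020305, at 3.02 times, averaged 18.7 ± 1.85 CPM in PV against 6.21 ± 1.06 CPM in SST hippocampus. Just outside lay GSMG0030635, at 2.996 times, with 120.9 ± 8.26 CPM in PV against 40.4 ± 1.78 CPM in VIP cortex, and GSMG0009728, at 2.99 times, with 69.2 ± 5.08 CPM in PV against 23.2 ± 3.39 CPM in VIP cortex (n = 4 each). Another 200 features lay from 2 to under 3 times, and PV had the highest mean of all groups in 2970 of the 13220 features, so that the limit divides a continuous range.

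The group next to PV was most often another interneuron group. It was SST cortex for 50 members, SST hippocampus for 30, VIP cortex for 26, Scnn cortex for 17, CamK cortex for 5, Grik hippocampus for 5 and CamK hippocampus for 0. The interneuron groups thus came next for 106 of 133 members (79.7%). Among the 2837 features at 1 CPM in all PV libraries that had their highest mean in PV but missed the rule, this share was 75%, so it says little about the members in particular. Members with an SST group next had a median enrichment of 4.44 times, those with VIP next 4.24 times and those with a glutamatergic group next 4.06 times. The 16 members enriched 10 times or more had an SST group next in 14 cases and a glutamatergic group in 2.

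How far members were detected elsewhere went with their abundance. A set of 37 members stayed under 1 CPM on average in all 7 other groups. These were mostly low in PV as well, with PV means of 1.39 to 32.9 CPM (median 2.72 CPM) and an enrichment of 3.22 to 68.1 times (median 6.33 times). Any member under 3 CPM in PV falls in this set by the rule itself, so that for those members it marks low level and not restriction to PV. Others in the set lay above 3 CPM, among them GSMG0005550 at 32.9 CPM and GSMG0018555 at 10.6 CPM in PV, enriched 36.7 and 15.1 times. Another 37 averaged at least 1 CPM in all 7 other groups. They were abundant in PV, from 13.7 to 4657 CPM (median 119 CPM), with a median enrichment of 3.75 times. The remaining 59 lay in between, with a median PV mean of 15.5 CPM. The number of members at a mean of 5 CPM or more was 50 in SST cortex, 44 in SST hippocampus, 39 in VIP cortex, 32 in Scnn cortex, 26 in CamK cortex, 21 in Grik hippocampus and 20 in CamK hippocampus.

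**Figure D3:**
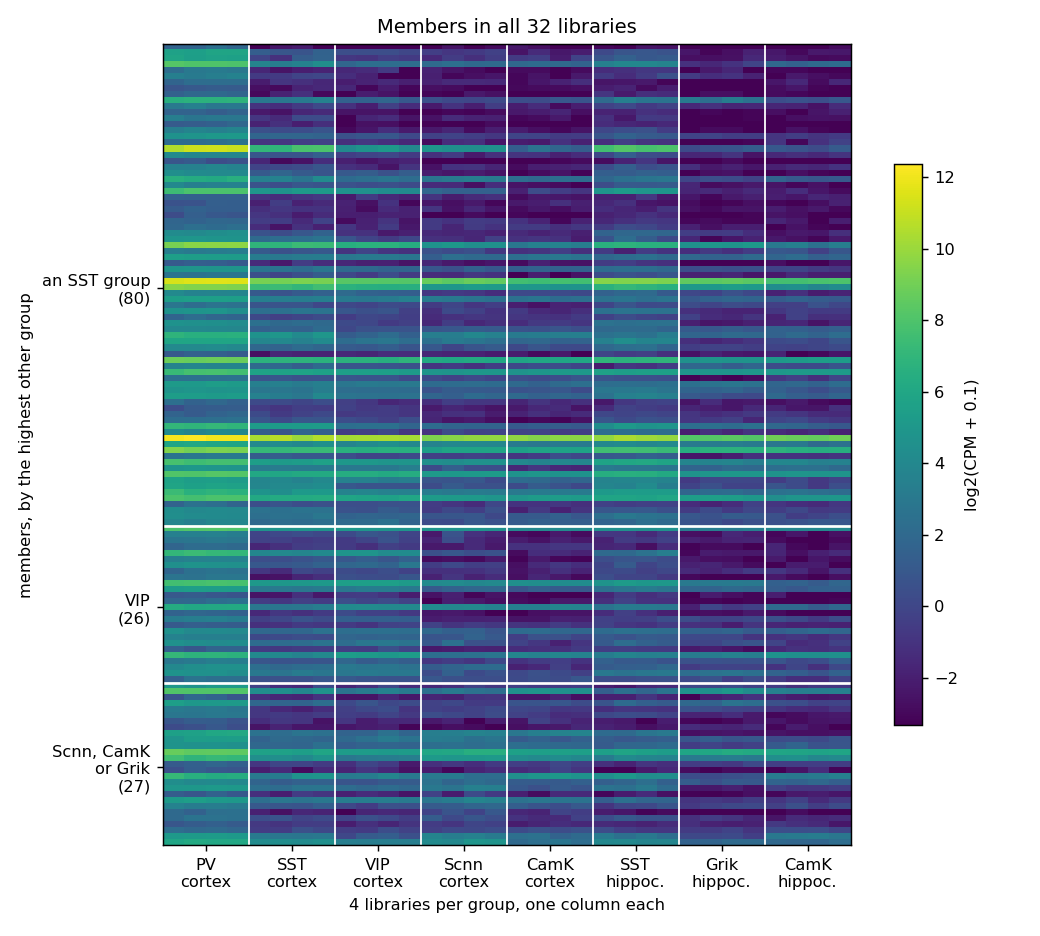
The 133 members (rows) in all 32 libraries (columns, 4 per group), as log2(CPM + 0.1). Rows are sorted by the kind of the highest other group (80 with an SST group, 26 with VIP cortex, 27 with Scnn, CamK or Grik) and by falling enrichment within it. The PV columns are the brightest in each row, and the SST columns of cortex and hippocampus come next in most rows.

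The PV libraries agreed closely. The coefficient of variation over the 4 PV libraries had a median of 12.3% among members (quartiles 7.51% and 17.5%), beside 10.4% among the 13220 features at 1 CPM in PV (quartiles 6.59% and 15.8%). The largest was the 41.2% of GSMG0032906, a scarce member at 1.68, 3.88, 3.02 and 1.75 CPM in PV, whose libraries in the other groups did not pass 0.42 CPM. Choosing the members from 3 PV libraries and looking them up in the one left out gave 129 to 136 features, of which 127 to 130 belong to the list. In the library left out, 85.8% to 96.9% of them were at 3 times the highest other group mean or more, and the median enrichment there was 4.13 to 4.68 times. All of them exceeded the highest other group mean in PV replicates 2, 3 and 4, and 135 of 136 did in replicate 1. Each choice shares 3 PV libraries and all other libraries with the list, so that the overlap is largely fixed. The other group means used for the lookup are also those that chose the features. These values thus describe the spread between PV libraries, which the labels do not call separate animals, and are no test of the list.

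In deposited length the members resembled other features of PV cells. Their median was 1399 bases (quartiles 950 and 2425), beside 1447 bases (quartiles 889 and 2494) over the features at 1 CPM in PV, and 27.8% of members were shorter than 1000 bases, beside 30.9%. With each of the other groups in the place of PV, the same rule found 290 features for VIP cortex, 87 for Grik hippocampus, 67 for Scnn cortex, 42 for CamK cortex, 35 each for both SST groups and 24 for CamK hippocampus. SST and CamK each have a counterpart in the other region that the rule also sets against them. PV, VIP, Scnn and Grik have none, and the bearing of this on the list sizes was not tested. VIP cortex titles carry the W and the other cortical titles do not, so that population and title series cannot be told apart in its list.

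The levels of the members outside the PV libraries were tested between the other groups with edgeR's quasi-likelihood test. It was fitted to all 24555 features that passed a filter on low counts. The filter used the PV libraries too, so that all 133 members passed it by their PV level, whatever their level in the groups tested. Calls needed a Benjamini-Hochberg adjusted p under 0.05 together with a 2-fold difference. The rule held each other group to the same ceiling and named no direction between them. Neither background was held to that ceiling, and its effect on the shares below was not tested. Background shares are given over all features tested and, in the same order of directions, over the 13220 features at 1 CPM in PV. The comparisons below share several groups with each other, and each one's values stand on their own. At least 1 of the 7 differences between groups was called in 125 members (94%) and none in 8. This stands beside 51.6% with at least 1 over all features tested and 35.8% over the features at 1 CPM in PV. The rule chose features that differ between populations and the backgrounds were not so chosen, so that these shares are not like for like.

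Within the cortex, members were mostly higher in SST neurons than in glutamatergic neurons. In SST cortex against the mean of CamK and Scnn cortex, 80 members (60.2%) were higher and 4 (3.01%) lower. The background was 10.6% higher and 11% lower over all features tested, and 10.5% and 7.97% over the features at 1 CPM in PV. The median log2 fold change was 1.36 among members and 0.00 over all features. GSMG0028611 had 2.04, 3.44, 2.09 and 1.57 CPM in SST cortex against 0.0749 to 0.128 CPM in Scnn cortex and 0 to 0.0759 CPM in CamK cortex, where it had 13 counts in all (log2 fold change 5.22, SE 0.38, edgeR adjusted p = 3.6e-13). GSMG0010420 had 1.2 to 1.89 CPM in SST cortex against at most 0.12 CPM in either glutamatergic group (4.81, SE 0.41, edgeR adjusted p = 1.57e-11). Both were similarly low in the hippocampal Grik and CamK libraries. GSMG0005879 went the other way, at 4.77 to 6.51 CPM in SST cortex against 10.4 to 12.6 CPM in Scnn and 7.28 to 13.5 CPM in CamK (-1.05, SE 0.17, edgeR adjusted p = 2.73e-06). It lay just past the 2-fold limit and dropped to -0.95, -0.99 and -0.97 without SST cortex replicate 2, CamK cortex replicate 3 or CamK cortex replicate 4, which ended the call. Without SST cortex replicate 2 or without CamK cortex replicate 4, 2 members were called lower.

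The same lean was found in the hippocampus, in libraries that share none with the cortical comparison. In SST hippocampus against the mean of CamK and Grik hippocampus, 93 members (69.9%) were higher and 5 (3.76%) lower. The background was 16.9% higher and 10.1% lower over all features, and 11.7% and 8.49% over those at 1 CPM in PV. The median log2 fold change was 2.04 among members and 0.09 over all features. GSMG0036723 had 27.7, 39.5, 30.1 and 29 CPM in SST hippocampus against 0.156 to 0.271 CPM in Grik and 0.0368 to 0.321 CPM in CamK hippocampus (7.33, SE 0.28, edgeR adjusted p = 1.61e-18). GSMG0014211, described above, differed by 7.08 (SE 0.26, edgeR adjusted p = 3.01e-18). The lower members GSMG0034545 (-2.54, SE 0.25, edgeR adjusted p = 1.7e-10) and GSMG0036247 (-2.02, SE 0.21, edgeR adjusted p = 3.55e-09) were both highest in Grik among the hippocampal groups. Without SST hippocampus replicate 2 or without Grik hippocampus replicate 6, 3 members were called lower. In both regions 64 members were called higher in SST, which is 80% of those called in cortex and 68.8% of those called in hippocampus. Over the features at 1 CPM in PV the same overlap was 64.5% of those called higher in cortex and 57.6% of those in hippocampus. Over all features it was 62.3% and 38.9%. These overlaps are not like for like, since 69.9% of all members were called higher in hippocampus. That share was 11.7% over the features at 1 CPM in PV and 16.9% over all features. The 80% thus lies not far above the members' own 69.9%, and the difference from the background was not tested. None of the members was called lower in both, where few were called lower in either, and 5 were called in opposite directions.

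**Figure D4:**
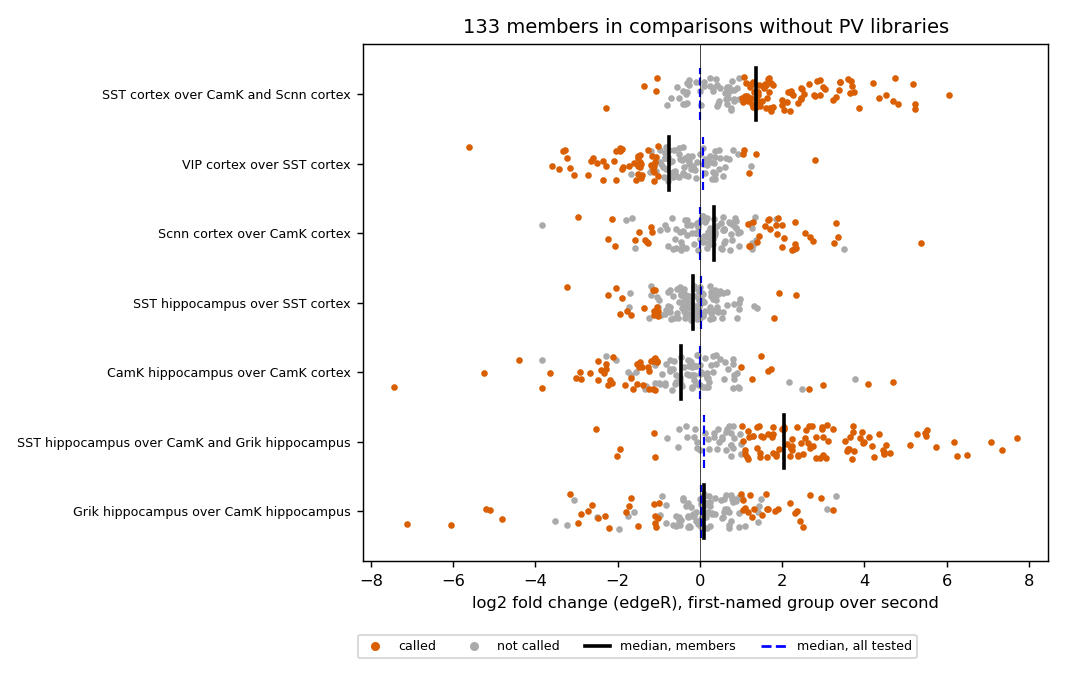
Log2 fold changes of the 133 members in the 7 comparisons between groups other than PV, the first-named group over the second. Each point is a member, orange where it was called, with the members' median as a black line and the median of all features tested as a dashed blue line. The members' medians are 1.36 and 2.04 for SST against glutamatergic groups and -0.75 for VIP against SST cortex.

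Between the other cortical interneurons the members leaned to SST. In VIP cortex against SST cortex, 5 members (3.76%) were higher and 47 (35.3%) lower, with a median log2 fold change of -0.75. All features went the other way, with 18.1% higher and 5.68% lower, and the features at 1 CPM in PV split into 6.92% higher and 6.07% lower. GSMG0038989 had 1.92, 1.49, 1.58 and 1.54 CPM in VIP cortex against 14.6, 16.4, 16.4 and 20.1 CPM in SST cortex (-3.59, SE 0.27, edgeR adjusted p = 6.32e-12), and its VIP level was close to the 0.958 to 2.27 CPM of CamK cortex. GSMG0017838 had 0.0262 to 0.32 CPM in VIP cortex against 1.08 to 1.59 CPM in SST cortex (-3.42, SE 0.52, edgeR adjusted p = 2.53e-06). Higher in VIP were GSMG0024013, with 1.17 to 1.76 CPM in VIP cortex against 0.0664 to 0.335 CPM in SST cortex (2.79, SE 0.53, edgeR adjusted p = 5.36e-05), and GSMG0009241, with 3.03 to 3.6 CPM against 0.946 to 1.26 CPM (1.37, SE 0.23, edgeR adjusted p = 1.18e-05). VIP titles carry the W and SST cortex titles do not, so that the population cannot be told apart from the series of titles.

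Between the glutamatergic groups of the cortex more members were higher than lower in Scnn, and the same held over all features tested. In Scnn cortex against CamK cortex, 28 members (21.1%) were higher and 11 (8.27%) lower, with a median log2 fold change of 0.34. Over all features 13.7% were higher and 5.94% lower, and over the features at 1 CPM in PV 5.61% and 4.79%. GSMG0020072 had 2.25, 3.29, 4.37 and 4.41 CPM in Scnn against 0.168, 0.251, 0.67 and 0.224 CPM in CamK (3.36, SE 0.32, edgeR adjusted p = 5.87e-10). GSMG0027338, at 136 to 163 CPM in PV, had 1.25 to 1.82 CPM in Scnn against 0.0372 to 0.317 CPM in CamK (2.74, SE 0.38, edgeR adjusted p = 1.42e-06). GSMG0004873 was lower, at 4.79 to 8.27 CPM in Scnn against 21.2 to 33.2 CPM in CamK (-2.13, SE 0.31, edgeR adjusted p = 3.72e-06). It was uneven within SST cortex too, with 8.11 and 9.39 CPM in replicates 1 and 2 and 25.3 and 27.8 CPM in replicates 3 and 4. GSMG0036247 was also lower, at 5.27 to 8.48 CPM in Scnn against 23.2 to 28 CPM in CamK (-2.05, SE 0.23, edgeR adjusted p = 3.62e-08).

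Between Grik and CamK hippocampus the members split evenly, with 22 (16.5%) higher and 23 (17.3%) lower in Grik and a median log2 fold change of 0.10. Over all features 6.99% were higher and 6.4% lower, and over the features at 1 CPM in PV 4.8% and 5.18%. GSMG0040522 had 8.57, 5.02, 9.72 and 5.72 CPM in Grik against 1.22 to 1.8 CPM in CamK (2.42, SE 0.24, edgeR adjusted p = 2.24e-09), a Grik level close to the 4.23 to 10.7 CPM of SST hippocampus. GSMG0008347 had 0.78 to 1.38 CPM in Grik against 0.126 to 0.351 CPM in CamK (2.31, SE 0.27, edgeR adjusted p = 2.99e-08). GSMG0032494 was lower, at 0.667 to 1.03 CPM in Grik against 7.14 to 9.71 CPM in CamK (-3.15, SE 0.23, edgeR adjusted p = 2e-12). GSMG0000804, one of the 16 members enriched 10 times or more in PV, was at 0.239 to 0.821 CPM in Grik against 2.82 to 4.51 CPM in CamK (-2.96, SE 0.26, edgeR adjusted p = 2.27e-10).

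Between regions, 18 members were called in SST cells and 48 in CamK cells. In SST hippocampus against SST cortex, 3 members (2.26%) were higher and 15 (11.3%) lower, with a median log2 fold change of -0.16. Over all features 3.92% were higher and 3.54% lower, and over the features at 1 CPM in PV 1.91% and 2.75%. Without SST cortex replicate 4, 5 members were called higher. In CamK hippocampus against CamK cortex, 9 members (6.77%) were higher and 39 (29.3%) lower, with a median of -0.47. Over all features 5.43% were higher and 8.46% lower, and over the features at 1 CPM in PV 3.5% and 7.3%. In both cell populations 4 members were called lower in the hippocampus, which is 26.7% of those in SST and 10.3% of those in CamK, and none was called higher in both. Over the features at 1 CPM in PV, those lower in both made up 44.1% of the lower calls in SST and 16.6% of those in CamK, and over all features 37.8% and 15.8%. Those higher in both made up 30.2% of the higher calls in SST and 16.4% of those in CamK over the features at 1 CPM in PV. Over all features these shares were 30.5% and 22.1%. The member counts behind these overlaps are small, and the difference from the background was not tested. The hippocampal titles carry the W and these cortical titles do not, so that in both populations the region cannot be told apart from the series of titles.

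GSMG0034545 had 0.132, 0.427, 0.362 and 0.583 CPM in SST hippocampus against 4.08, 3.64, 2.42 and 3.93 CPM in SST cortex (-3.24, SE 0.27, edgeR adjusted p = 1.49e-10). The low level was not common to the hippocampal groups, since Grik hippocampus held 2.39 to 3.67 CPM. GSMG0036247 was likewise lower, at 2.57 to 6.61 CPM in SST hippocampus against 15 to 26.8 CPM in SST cortex (-2.24, SE 0.23, edgeR adjusted p = 3.02e-08). This member was the most even of the named ones within PV, at 271, 270, 276 and 275 CPM, while its other group means ranged between 4.53 CPM in SST hippocampus and 25.8 CPM in Grik hippocampus.

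In CamK cells GSMG0035224 had 4.99, 5.52, 5.5 and 4 CPM in hippocampus against 0.236, 0.457, 0.25 and 0.205 CPM in cortex (4.08, SE 0.25, edgeR adjusted p = 1.67e-14). GSMG0015349 had 0.537 to 1.32 CPM in hippocampus against 0.0738 to 0.175 CPM in cortex (2.99, SE 0.30, edgeR adjusted p = 8.43e-10). GSMG0005879 had 0.075, 0.0569, 0.0543 and 0.0736 CPM in hippocampus (28 counts in all) against 7.28, 10.7, 12.6 and 13.5 CPM in cortex (-7.43, SE 0.29, edgeR adjusted p = 4.84e-19). Grik hippocampus was as low, at 0.0548 to 0.0904 CPM, and Scnn cortex as high as CamK cortex, so that the cortical and hippocampal glutamatergic groups did not overlap in this member, with the same limit that region and title series go together. GSMG0041467 showed the same order, at 0.259 to 0.705 CPM in CamK hippocampus and 0.417 to 0.61 CPM in Grik hippocampus against 5.97 to 7.45 CPM in CamK cortex (-3.84, SE 0.23, edgeR adjusted p = 1.58e-14, CamK hippocampus over CamK cortex).

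The difference between the regional effects was tested directly, with the same limit that region and title series go together. It was called in 44 members, of which 30 (22.6%) had a more positive hippocampus-over-cortex log2 fold change in SST than in CamK and 14 (10.5%) a more negative one. Over all features these shares were 6.4% and 4.43%, and over the features at 1 CPM in PV 5.89% and 4.21%. GSMG0005879 stood out with 7.46 (SE 0.34, edgeR adjusted p = 1.38e-16): its SST levels were 4.17 to 7.91 CPM in hippocampus and 4.77 to 6.51 CPM in cortex, which gave a log2 value of 0.03 (SE 0.19, edgeR adjusted p = 0.943). GSMG0035224 had the opposite sign, -4.35 (SE 0.32, edgeR adjusted p = 4.08e-12), with 6.49 to 8.17 CPM in SST hippocampus and 8.25 to 9.08 CPM in SST cortex. GSMG0006133 (3.85, SE 0.48, edgeR adjusted p = 2.36e-07) and GSMG0017815 (-4.85, SE 0.61, edgeR adjusted p = 2.69e-07) were the others named by the same rule. GSMG0017815 had 0.491 to 0.984 CPM in CamK hippocampus against at most 0.0649 CPM in CamK cortex, and 1.04 to 1.62 CPM in SST hippocampus against 1 to 1.74 CPM in SST cortex. Its CamK cortex libraries held 11 counts in all, and its value ran from -5.85 to -4.48 with 1 library left out. GSMG0006133 had 0.0207 to 0.11 CPM in CamK hippocampus (29 counts in all) against 0.295 to 0.77 CPM in CamK cortex, and 0.797 to 1.21 CPM in SST hippocampus against 0.466 to 0.583 CPM in SST cortex.

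**Figure D5:**
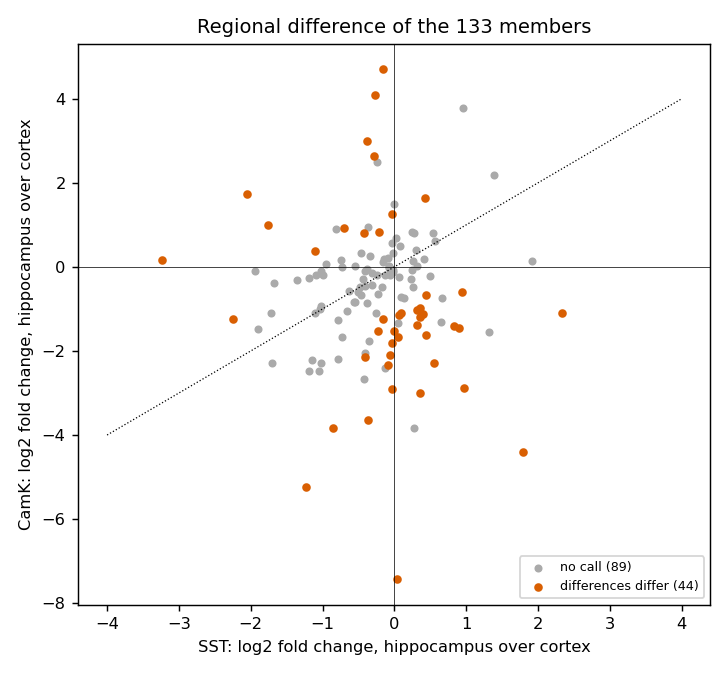
Log2 fold change of hippocampus over cortex for the 133 members in SST cells (horizontal) and in CamK cells (vertical), with the line of equal change dotted. Orange points are the 44 members whose regional changes were called different. The points spread further along the vertical axis, down to -7.43, than along the horizontal one, down to -3.24.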

How the data were processed

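The authors deposited expected counts, which may be fractional, for each feature and library in 1 table. Per the submitters' processing notes, the tools include featureCounts, SAMtools, Picard and FastQC and the build GRCm38, in roles not stated. Which aligner, annotation and strand setting were used is not given in the sources used here, and overlapping, antisense or near-identical features are therefore uncertain. The extract protocol in the labels names the RNeasy Plus Micro kit and a stranded TruSeq kit for polyadenylated RNA. A further 12 columns of per-sample values match no sample of these labels and were not used. Feature length is as deposited by the authors.

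CPM used column totals, and the 8 groups follow the titles and tissue labels. For tests the expected counts were rounded and fitted with edgeR 4.0.16 in R 4.3.3 (filterByExpr, TMM, 1 coefficient per group over all 32 libraries, 24 residual degrees of freedom, robust quasi-likelihood F test, Benjamini-Hochberg over 24555 features). An SE is the size of the log2 fold change over the square root of F. The code of the fit was checked on simulated data with a common spread for all features, and no result here rests on that run. Alternatives were DESeq2 1.42.0, RLE scaling, other filters, no fold limit, only the groups compared, a block for title numbers and leaving out each library.

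The named features were those with the 2 highest PV means, as CPM and per kilobase, the 2 largest enrichments, the 2 on each side of the limit, the largest spread in PV and, per comparison, up to 2 called each way with 1 CPM on the higher side and no overlap of libraries (overlap allowed for the difference between regional effects). The members, lists and tests were chosen with earlier results of these data known. A list of cell type markers had been set down too, but without gene names it could not be looked up.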

Additional observations from a re-analysis of the deposited data

Results flagged for a closer look

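A test for 1 library standing far from the other 3 of its group was run on the named features in each group and on the members' summed share, in 264 sets of 4 libraries. It marked 25 (9.47%), where chance marks about 1 in 20 of independent sets of normal values. These sets share libraries, and some features were picked for extreme values. Some sets are near 0, such as GSMG0040681 in CamK hippocampus with 0, 0, 0 and 0.0368 CPM. The 9.47% therefore cannot be read as an excess of outlying libraries. Within PV cortex it marked replicate 2 for GSMG0030830 (5278 CPM), GSMG0027404 (11.2 CPM) and GSMG0027338 (163.3 CPM), and replicate 1 for GSMG0036723 (170.7 CPM) and GSMG0040522 (95.3 CPM). In the other cortical groups it marked GSMG0020305 in Scnn replicate 4 (0.958 CPM), GSMG0032906 in VIP replicate 3 (0.229 CPM), GSMG0010420 in CamK replicate 2 (0.12 CPM), GSMG0005879 in VIP replicate 3 (5.65 CPM) and GSMG0020072 in CamK replicate 3 (0.67 CPM). It also marked GSMG0035224 in VIP replicate 4 (10.2 CPM) and Scnn replicate 2 (2.55 CPM), GSMG0015349 in Scnn replicate 1 (0.127 CPM), GSMG0036723 in Scnn replicate 1 (3.81 CPM), GSMG0040522 in SST replicate 4 (12.4 CPM), GSMG0000804 in VIP replicate 1 (3.49 CPM) and GSMG0017815 in SST replicate 2 (1.0 CPM). In the hippocampus it marked GSMG0030830 in Grik replicate 5 (340.2 CPM), GSMG0040681 in CamK replicate 5 (0.037 CPM), GSMG0032906 in SST replicate 3 (0.42 CPM), GSMG0024013 in Grik replicate 3 (0.028 CPM) and GSMG0009241 in Grik replicate 6 (0.421 CPM). The last were GSMG0038989 in Grik replicate 4 (1.3 CPM), GSMG0004873 in SST replicate 2 (30.9 CPM) and GSMG0015349 in SST replicate 5 (1.26 CPM).

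The 4 members named for a hippocampus-over-cortex change that differed between SST and CamK cells were flagged too. Their log2 values in edgeR's test of the difference, SST minus CamK, were 7.46 for GSMG0005879, 3.85 for GSMG0006133, -4.85 for GSMG0017815 and -4.35 for GSMG0035224. They were picked for the largest values each way among members called in that same test. That each of them differed was therefore fixed in advance. Region and title series go together here too.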

How the results depend on the processing

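The number of features in the PV cortex list depends on its limits. It was 333 at 2-fold, 53 at 5-fold, 701 with no minimum in PV and 69 where the lowest PV library had to be 3 times the highest other library. It was 143 with TMM and 142 with DESeq2 scaling, which include all 133 members, 91 with a minimum of 5 CPM, 133 with group medians (130 shared) and 129 to 136 when 1 library was left out. Without the 2-fold limit, 61 members were called in Scnn against CamK cortex and 40 in SST hippocampus against SST cortex, beside 39 and 18 with it. All other totals of members called stayed within 1.5 times under DESeq2, RLE, both other filters, the fit on only the groups compared and each library left out, and no named direction turned. Lowest and highest totals with 1 library left out were 77 and 85 for SST against glutamatergic cortex, 95 and 101 for the same in hippocampus, 44 and 56 for VIP against SST cortex and 12 and 18 for SST between regions. In Grik against CamK hippocampus, the fit on only those groups called 15 members lower, beside 23. No label says that title numbers pair libraries. Of same-numbered libraries of different groups, 4 of 24 pairs without the W (median correlation 0.0302) and 0 of 16 with it (0.00455) deviated together with a correlation over 0.1, beside 0 of 72 (-0.00585) and 0 of 80 (-0.0022) differently numbered pairs. The same-numbered library was the best match of the 4 in a group in 33 of 80 cases. These cases count each pair from both ends and are not independent, and no same-numbered correlation passed 0.123. This is at most a hint of weak pairing, from the data and not from the design, and it was not tested. With the number as a replicate block, 83 members were called in SST against glutamatergic cortex, 39 in Scnn against CamK, 97 in SST against CamK and Grik hippocampus and 42 in Grik against CamK. For levels near 0.03 CPM, depth limits the comparison to the counts given.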
